A study of Mus musculus with 2 samples.

Results

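Plasma cells were examined within single-cell RNA sequencing (scRNA-Seq) data of murine colitis-associated colon tumors (CACs). They were defined as cells with the deposited label B cells in which 11 antibody mRNAs made up at least 10% of all UMIs, that is at least 1000 of every 10000 (a UMI, or unique molecular identifier, marks 1 captured mRNA molecule). The 11 mRNAs were Igkc, Igha, Ighm, Ighg1, Ighg2b, Ighg2c, Ighg3, Iglc1, Iglc2, Iglc3 and Jchain. The rule selected 831 of 1869 B cells, out of 38883 cells in all. The other 1038 B cells are called low-immunoglobulin B cells here and served for comparison. Since the cells were chosen by these measured values, the antibody mRNAs are given as a description only.

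The tumors came from female C57Bl/6 mice that carried a floxed Mir34a gene, which encodes the microRNA miR-34a. In mice with the genotype Mir34a ΔMye the floxed gene was combined with LysM-Cre, a Cre recombinase driven from the Lyz2 locus that is active in myeloid cells, so B lineage cells are not the cells targeted by this deletion. Floxed littermates without Cre, genotype Mir34a F/F, were the controls. All mice were 6 to 10 weeks old at the start and received the carcinogen azoxymethane at 10 mg/kg before the first and again before the second of 3 periods of dextran sodium sulfate in the drinking water. This agent, given at 2.5%, 2.5% and 2% for 5 days each, inflames the colon. Mice were sacrificed on day 110. Tumors of 3 mice (6 to 8 tumors) were pooled into 1 library per genotype, and the annotation does not say which mouse a cell came from. Each genotype thus had 1 library, no difference between genotypes could be tested, and differences between mice, libraries and genotypes cannot be told apart. All intervals given are 95% intervals for the counting of cells or UMIs and do not cover the spread between mice. Those of levels and ratios count UMIs only and do not cover the spread between cells either. Where a count is 0, the limit given is that of 3 counts of the total. The libraries are called the F/F library and the ΔMye library after their labels.

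Plasma cells are the antibody-secreting end stage of the B cell lineage. They expand the endoplasmic reticulum (ER), silence much of the B cell program under the repressor Blimp-1 (encoded by Prdm1), and translate antibody heavy and light chains at a very high rate with the help of the transcription factor Xbp1. In the gut most of them secrete dimeric IgA joined by the J chain, which the epithelial receptor encoded by Pigr carries into the lumen.

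The libraries differed in depth in every kind of cell compared. Plasma cells had a median of 15565 UMIs in the F/F library (range 1022 to 40957) and 33252.5 in the ΔMye library (881 to 84477), a ratio of 2.14. The same ratio was 2.34 for low-immunoglobulin B cells (2980 and 6978 UMIs) and 2.27 for T cells (3548 and 8043 UMIs). All levels are therefore given relative to the UMIs of each cell. Across all cells, 96 barcodes occurred in both libraries, among them those of 3 plasma cells in each library, and none of their namesakes in the other library was a B cell. The feature for the primary Mir34a transcript had 3 UMIs (0.619 to 8.77) in the plasma cells of the F/F library and 14 (7.65 to 23.5) in those of the ΔMye library, or 0.700 and 0.796 per 1000000 UMIs. In macrophages, where LysM-Cre acts, this feature was at 6.83 and 13.9 per 1000000 UMIs, which is higher in the library labelled Mir34a ΔMye. Whether the feature lies outside the deleted stretch is not given in the sources used here, so it does not check the labels. A Cre feature had 0 UMIs in plasma cells of either library. A feature named for Cre and Lyz2 had 2 UMIs in each, or 0.467 (F/F) and 0.114 (ΔMye) per 1000000. So few UMIs do not check the labels either. Mir34a hairpin, stem-loop and mature features had 0 UMIs in plasma cells, which by the limit of 3 UMIs allows 0.700 and 0.170 per 1000000.

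Antibody mRNA separated the B cells into groups with few cells between them. In the F/F library, 279 of 943 B cells reached the threshold, and 15 B cells lay between 200 and 1000 antibody UMIs per 10000. In the ΔMye library, 552 of 926 B cells reached it, and 26 lay in that range. The 3 cells nearest below the threshold had 860, 966 and 987 antibody UMIs per 10000 in the F/F library and 895, 909 and 951 in the ΔMye library. The 3 nearest above it had 1078, 1094 and 1125, and 1073, 1076 and 1224. Plasma cells themselves were alike in antibody content between the libraries. Their median was 4638 and 4725 antibody UMIs per 10000, with highest values of 6673 and 6783, and all immunoglobulin genes together took up a median of 47.7% and 48.0% of their UMIs. Low-immunoglobulin B cells had a median of 52.5 and 92.3, and T cells, which do not make antibody, had 25.5 and 51.2. The T cell values, which were higher in the ΔMye library, are taken here as a measure of free antibody mRNA. Empty droplets were not analysed here, and 1 T cell in each library was itself over the threshold.

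**Figure D1:**
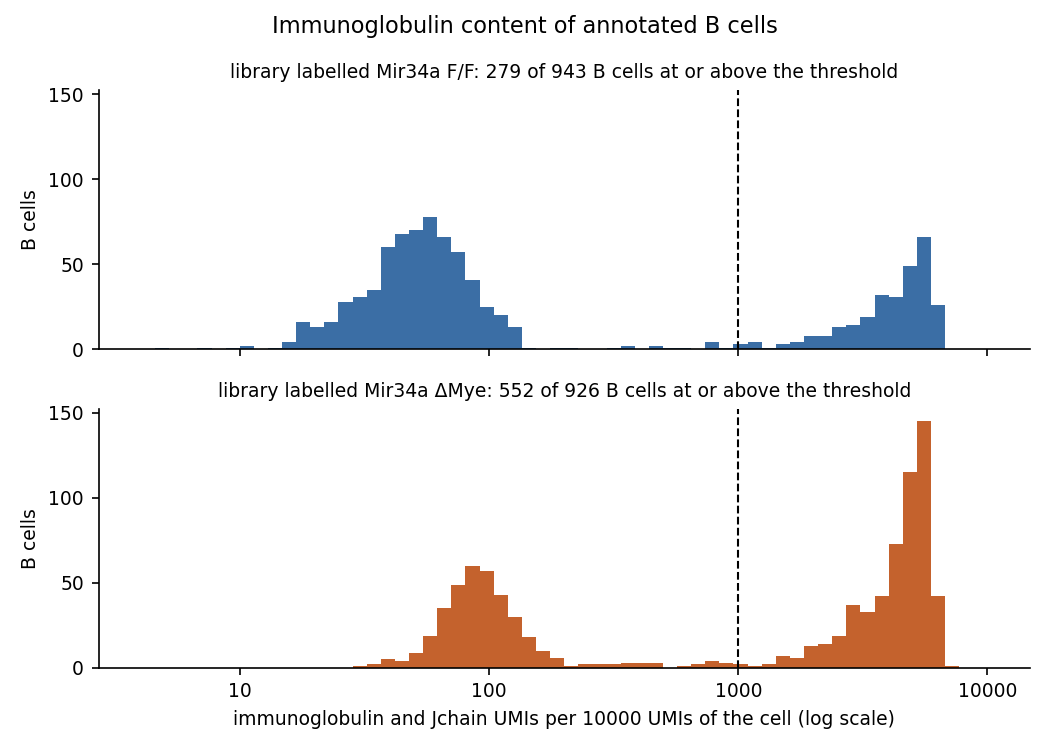
Antibody content of annotated B cells, with the sum of the 11 antibody mRNAs per 10000 UMIs of the cell on a log scale (x axis), the number of B cells per bin (y axis) and the threshold of 1000 as a dashed line. The cells fall into 2 groups in each library, and the group right of the line holds 279 of 943 B cells (F/F library) and 552 of 926 (ΔMye library).

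Plasma cells made up a larger share of the B cells in the ΔMye library. The share was 29.6% (26.7% to 32.6%) in the F/F library and 59.6% (56.4% to 62.8%) in the ΔMye library, a difference of 30.0 percentage points (25.6 to 34.2). B cells as a whole were 4.64% and 4.99% of all cells. Of all cells, plasma cells were 1.37% (1.22% to 1.54%) and 2.97% (2.73% to 3.23%), which differ by 1.6 points (1.31 to 1.89). Low-immunoglobulin B cells went the other way, with 3.27% and 2.01% of all cells and a difference of -1.26 points (-1.57 to -0.938). The share of plasma cells among B cells stayed between 27.7% and 30.6% in the F/F library, and between 56.7% and 60.8% in the ΔMye library, when the threshold or the cell filters were varied. Subtracting the T cell mean (31.6 and 63.1 antibody UMIs per 10000) could not change the shares, since no plasma cell lay that near the threshold.

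The label plasma cell was checked against markers that the rule did not use. Levels of mRNAs that do not encode immunoglobulins are given as the mean over cells of UMIs per 10000 non-immunoglobulin UMIs, because antibody mRNA filled about as much of these cells as everything else together. Xbp1 (chr11:5520659-5525893, mm10) was at 20.4 in plasma cells against 0.719 in low-immunoglobulin B cells in the F/F library, and at 21.5 against 0.781 in the ΔMye library. Mzb1, an ER protein that supports antibody assembly, was at 24.8 against 0.950 and at 32.3 against 1.17. Sdc1 (chr12:8771323-8793715), the plasma cell surface proteoglycan syndecan-1 or CD138, was lower, at 2.57 against 0.610 and at 3.43 against 0.394. All 3 markers were thus several-fold higher in plasma cells of both libraries. As log2 ratios, Xbp1 was 4.82 (4.56 to 5.10) and 4.78 (4.52 to 5.05) higher, Mzb1 4.71 (4.51 to 4.91) and 4.79 (4.62 to 4.97), and Sdc1 2.07 (1.75 to 2.41) and 3.12 (2.74 to 3.52). The J chain gene Jchain, a marker that the rule did use, was at 400 against 2.31 and at 474 against 6.91 per 10000 of all UMIs.

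Single cells varied widely around these means. Xbp1 had a median of 17.3 per 10000 in plasma cells of the F/F library and 18.8 in those of the ΔMye library, with 5th to 95th percentiles of 3.02 to 47.5 and 5.68 to 47.4, and was at 0 in the median low-immunoglobulin B cell. Tnfrsf17, which encodes the survival receptor BCMA, had a median of 1.35 and 1.84. After each cell was thinned to 1000 non-immunoglobulin UMIs, at least 1 Xbp1 UMI was found in 80.1% and 79.0% of plasma cells, against 5.21% and 6.99% of low-immunoglobulin B cells and 8.67% and 7.04% of T cells. For Mzb1 these shares were 82.4% and 87.4%, 9.66% and 9.95%, and 0.90% and 1.85%, and for Sdc1 they were 21.3% and 29.0%, 4.45% and 5.11%, and 5.37% and 3.07%. The share of Xbp1 in low-immunoglobulin B cells was thus below that in T cells in both libraries, though nearly the same in the ΔMye library. The share of Sdc1 was lower than in T cells in the F/F library and higher in the ΔMye library. Mzb1 was found in more low-immunoglobulin B cells than T cells. Too shallow for thinning were 7 and 4 plasma cells, 12 and 2 low-immunoglobulin B cells, and 88 and 7 T cells.

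Across all genes, plasma and low-immunoglobulin B cells differed at many mRNAs in both directions. In the F/F library, 9731 genes had a mean of at least 0.1 in either group, and of these 1171 (12%) were at least 2-fold higher and 1100 (11.3%) at least 2-fold lower in plasma cells. In the ΔMye library the counts were 1376 (14.9%) and 1133 (12.3%) of 9215 genes. The median log2 ratio over all genes was -0.11 and -0.09. Of the 8942 genes tested in both libraries, 873 were at least 2-fold higher in both, 688 were at least 2-fold lower in both, and 3 were 2-fold changed in opposite directions. These counts are no test, and the same B cells of 1 library lie behind each. They depend on the scale: relative to all UMIs of the cell, 316 and 395 genes were higher and 4511 and 4281 lower, so that the higher genes went from 51.6% and 54.8% to 6.55% and 8.45% of the 2-fold changed ones, and the median log2 ratio over all genes moved to -0.99 in both libraries. No named gene that was 2-fold changed turned its direction under that scale.

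**Figure D2:**
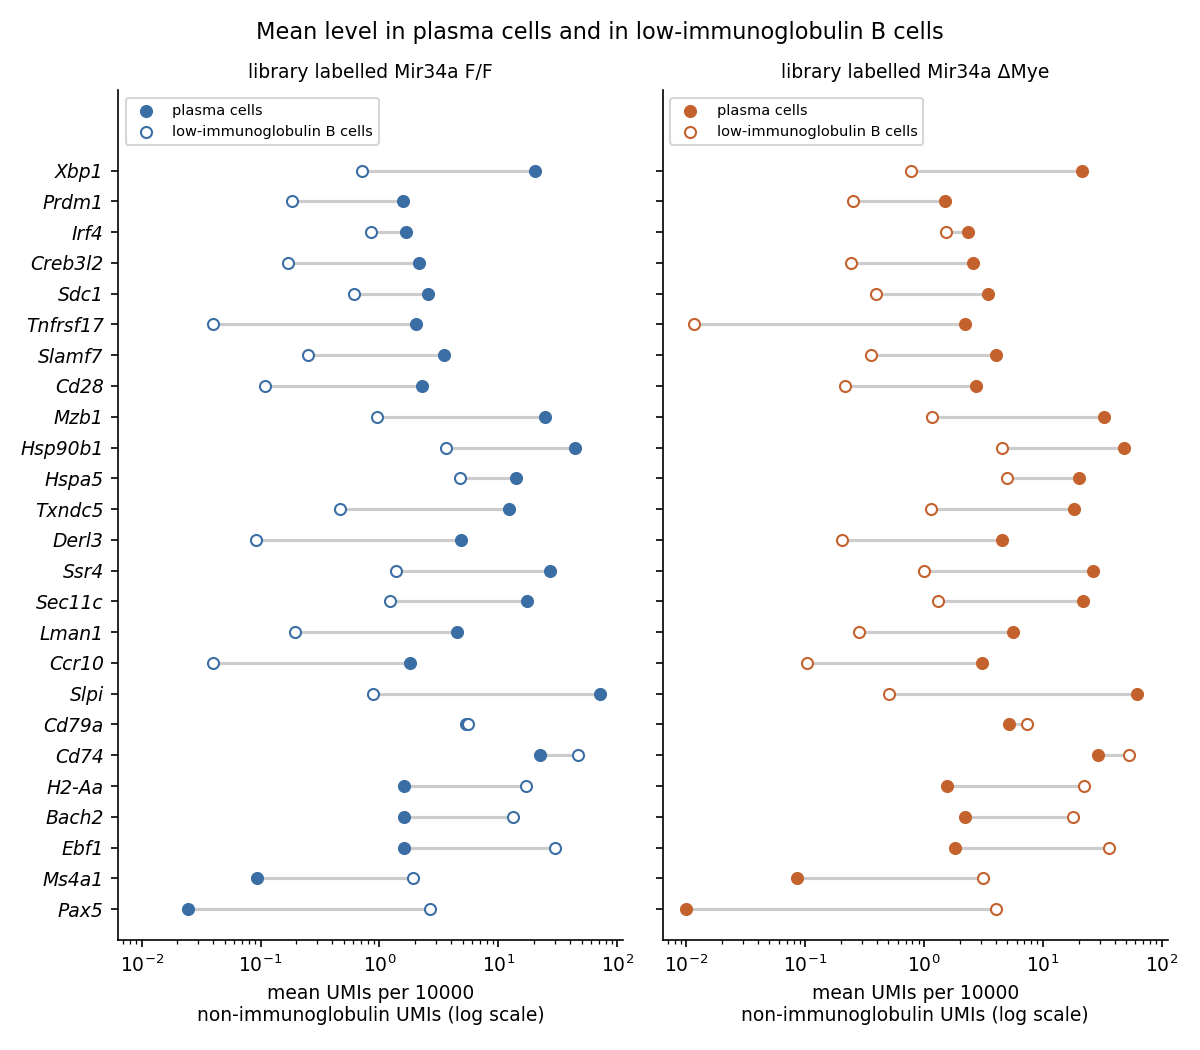
Mean level of 25 named mRNAs in plasma cells (filled) and in low-immunoglobulin B cells (open), in UMIs per 10000 non-immunoglobulin UMIs on a log scale, for each library. The rows from Xbp1 to Slpi have the filled point to the right in both libraries, Cd79a has both points close together, and the rows from Cd74 to Pax5 have the open point to the right.

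The 10 mRNAs that stood highest above low-immunoglobulin B cells were taken among those found in at least 25% of plasma cells at a mean of at least 1. Slpi, a secreted protease inhibitor of mucosal surfaces, was the most abundant of them, at 71.6 against 0.879 in the F/F library and 61.7 against 0.510 in the ΔMye library. Its log2 ratios were 6.35 (6.11 to 6.59) and 6.92 (6.62 to 7.23), and T cells had 0.783 and 0.520. The other mRNAs in this set of 10 were Prg2, Ly6c2, Tnfrsf17, Cacna1s, Ccr10, Xbp1, Mzb1, Gm5547 and Sdf2l1. Tnfrsf17 was at 2.01 against 0.0397 and at 2.22 against 0.0117, log2 ratios of 5.66 (4.58 to 6.97) and 7.57 (6.13 to 9.57). Ly6c2, a surface antigen also known from monocytes, had log2 ratios of 6.17 and 6.86, and Prg2, best known as an eosinophil granule protein, 7.13 and 6.21. Cacna1s, a calcium channel subunit, had 5.38 and 5.00. The remaining member, Gm5547, had 6.80 and 4.62.

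At the other end stood mRNAs of the mature B cell. Bank1, a signaling adaptor of the B cell receptor, was at 0.109 against 13.3 in the F/F library and at 0.126 against 25.1 in the ΔMye library, log2 ratios of -6.93 (-7.70 to -6.25) and -7.64 (-8.13 to -7.18). Pax5, the master regulator of B cell identity, was at 0.0246 against 2.66 and at 0.00992 against 4.0, which rests on 5 and 8 UMIs in all plasma cells. Its log2 ratios were -6.76 (-8.49 to -5.45) and -8.65 (-10.09 to -7.49). Further members of this set of 10 were Gm31243, Lrrk2, H2-DMb2, Aff3, Ms4a1 and Cd86, with log2 ratios between -4.31 and -6.50 in the F/F library and between -5.20 and -8.63 in the ΔMye library. Ms4a1 encodes the B cell surface protein CD20 and Cd86 a costimulatory ligand.

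Regulators of the plasma cell program differed in size. The list of 9 genes holds transcription factors, the elongation factor Ell2 and Zbp1, which is a sensor of nucleic acids and no transcription factor. Of these 9, 5 were at least 2-fold higher in plasma cells of the F/F library and 6 in those of the ΔMye library (12% and 14.9% of all genes), none was 2-fold lower, and the list's median log2 ratio was 2.15 and 1.94, against -0.11 and -0.09 over all genes. Prdm1 was at 1.57 against 0.182 and at 1.52 against 0.254, log2 ratios of 3.11 (2.54 to 3.72) and 2.58 (2.04 to 3.15). Creb3l2, an ER-anchored factor that supports secretion, had 3.67 and 3.41, Zbp1 2.46 and 2.43, and Atf6, another ER-anchored factor, 2.15 and 1.94. Irf4, which acts in both activated B cells and plasma cells, differed less, with 0.98 (0.69 to 1.27) and 0.60 (0.43 to 0.77). Ell2, which favours the secreted form of the heavy chain mRNA, had 0.97 and 1.04. For Zbtb20 the ratios were -0.01 (-0.14 to 0.13) and -0.07 (-0.16 to 0.01). Its level relative to non-immunoglobulin UMIs was thus the same in both kinds of B cell within counting error. This depends on the scale, since relative to all UMIs the median over all genes was -0.99. Atf4 had 0.13 and 0.40.

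The list of 19 surface and survival genes also holds genes that are neither, such as Derl3 of ER-associated degradation, which is counted in that list as well. Of these 19, 18 had a mean of at least 0.1 in either group. In each library, 16 of the 18 were at least 2-fold higher and 1 at least 2-fold lower (all genes: 12% and 14.9% higher, 11.3% and 12.3% lower). Their median log2 ratio was 3.33 and 3.28. Receptors on the surface included Cd28, a costimulatory receptor that supports the survival of plasma cells (4.39 and 3.66), Slamf7 (3.78 and 3.49), Bst2 (3.94 and 3.85), and Tnfrsf13b, which encodes the BAFF and APRIL receptor TACI (3.19 and 2.55). Cd28 was at 2.28 against 0.109 in the F/F library and at 2.75 against 0.217 in the ΔMye library. The 1 lower gene was Cd38, at 0.459 against 0.924 and at 0.483 against 1.34, log2 ratios of -1.01 (-1.50 to -0.53) and -1.48 (-1.86 to -1.10). Mcl1, an anti-apoptotic factor on which plasma cells depend, was at 4.26 against 3.09 and at 4.44 against 2.26, ratios of 0.47 and 0.97 that stayed under 2-fold. Fcrl5 was under the minimum of 0.1 in all groups.

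Among B cell identity genes, 14 of 17 were at least 2-fold lower in plasma cells of each library and none was 2-fold higher, with a median log2 ratio of -3.70 and -4.65. Of all genes, 11.3% and 12.3% were 2-fold lower. The factor Ebf1, which acts with Pax5, was at 1.6 against 30.2 and at 1.84 against 36.0, log2 ratios of -4.24 (-4.46 to -4.03) and -4.29 (-4.37 to -4.21). Bach2, a repressor that holds back plasma cell differentiation, was at 1.61 against 13.2 and at 2.21 against 18.1. In T cells Ebf1 was at 0.323 and 0.230, below its level in plasma cells, and Bach2, which T cells also use, at 4.46 and 6.40. The exceptions, on the scale of non-immunoglobulin UMIs, were the B cell receptor subunits and a BAFF receptor. Cd79a was at 5.35 against 5.52 and at 5.16 against 7.31, and Cd79b at 1.66 against 1.55 and at 1.98 against 1.76. Their log2 ratios were -0.05 (-0.19 to 0.10) and -0.50 (-0.58 to -0.42), and 0.10 (-0.14 to 0.33) and 0.17 (0.01 to 0.32). Tnfrsf13c, the BAFF receptor, had 0.45 (-0.27 to 1.16) and -0.50 (-0.81 to -0.18) at means of 0.263 against 0.193 and of 0.369 against 0.521. Spib had 0 UMIs in plasma cells of the F/F library and is set at the limit of 3 UMIs in the medians.

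Genes of antigen presentation by MHC class II were lower in plasma cells. All 8 listed genes were at least 2-fold lower in the F/F library and 7 in the ΔMye library, against 11.3% and 12.3% of all genes. The chain H2-Aa was at 1.62 against 17.2 and at 1.57 against 22.1, log2 ratios of -3.41 and -3.82, and H2-Ab1 at 3.35 against 12.6 and at 3.30 against 15.1. T cells, taken as a measure of free mRNA, had 1.23 and 1.51 for H2-Aa, about as much as plasma cells, and 1.17 and 1.54 for H2-Ab1. Ciita, the class II transactivator, had log2 ratios of -4.05 (-6.26 to -2.28) and -5.03 (-5.77 to -4.37). The invariant chain Cd74 was the exception in size, at 22.2 against 46.6 and at 28.8 against 53.0, log2 ratios of -1.07 (-1.13 to -1.01) and -0.88 (-0.91 to -0.85), with 3.78 and 4.02 in T cells.

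**Figure D3:**
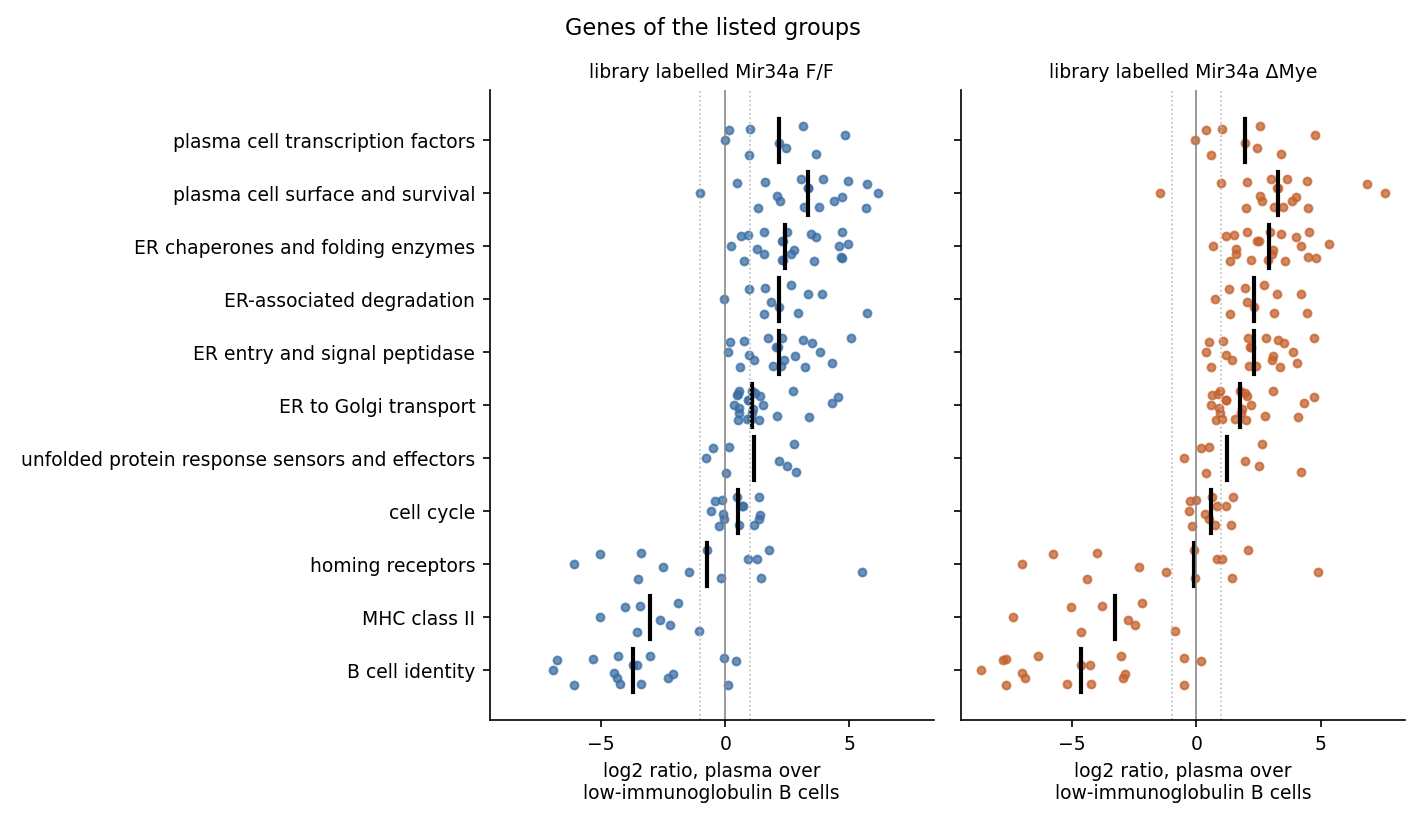
Log2 ratio of plasma over low-immunoglobulin B cells (x axis) for each gene of 11 listed groups (y axis), in each library, with 1 point per gene, a bar at the median of the group and dotted lines at 2-fold. The secretory groups lie mostly right of 0 in both libraries, the homing receptors spread to both sides, and MHC class II and B cell identity genes lie mostly left of 0.

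Listed genes of ER folding, degradation, entry and ER to Golgi transport differed in how many were at least 2-fold higher in plasma cells, against 12% and 14.9% of all genes. Of 22 ER chaperones and folding enzymes, 18 were at least 2-fold higher in plasma cells of the F/F library and 21 in those of the ΔMye library, none was 2-fold lower, and the median log2 ratio was 2.4 and 2.93. Hsp90b1, the ER chaperone GRP94, was the most abundant, at 44.1 against 3.66 and at 48.0 against 4.54, log2 ratios of 3.59 (3.48 to 3.70) and 3.40 (3.29 to 3.51). Hspa5, which encodes the chaperone BiP that binds free heavy chains, was at 14 against 4.78 and at 20.1 against 4.97, ratios of 1.55 (1.44 to 1.67) and 2.02 (1.93 to 2.12). The largest differences were in cofactors and disulfide enzymes: Fkbp11 (4.95 and 4.51), Txndc5 (4.71 and 4.0), Creld2 (4.66 and 4.52), Sdf2l1 (4.57 and 5.35) and Pdia4 (3.64 and 3.58). Canx, a lectin chaperone of glycoprotein folding, differed least, with 0.25 (0.02 to 0.47) and 0.66 (0.49 to 0.83), and its relative Calr had 0.93 and 1.58. P4hb, a general disulfide isomerase, had 0.65 and 1.33.

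Genes of ER-associated degradation, which removes misfolded chains, were 2-fold higher in 9 of 11 cases in the F/F library and in 10 of 11 in the ΔMye library, with medians of 2.15 and 2.30. Derl3, a derlin of the retrotranslocation channel, was at 4.85 against 0.0920 and at 4.50 against 0.204, log2 ratios of 5.72 (5.04 to 6.47) and 4.46 (3.77 to 5.23), while its relatives Derl1 (1.58 and 2.30) and Derl2 (0.94 and 1.35) differed less. Edem2, which trims mannoses of misfolded proteins, had 3.91 and 4.23, and the ubiquitin ligase Syvn1 had 1.85 and 1.95. Of 20 genes of ER entry and signal cleavage, 15 and 17 were at least 2-fold higher, with medians of 2.17 and 2.31. Ssr4, a subunit of the translocon-associated complex, was at 27.2 against 1.39 and at 26.5 against 1.01. The signal peptidase subunit Sec11c was at 17.5 against 1.23 and at 21.6 against 1.30, whereas its paralog Sec11a was at 1.2 against 0.802 and at 0.943 against 0.728. Sec62 (0.19 and 0.57) and Sec63 (0.11 and 0.50), which serve post-translational entry, also stayed under 2-fold. Of 23 genes of ER to Golgi transport, 13 and 16 were at least 2-fold higher, 12 of them in both libraries, with medians of 1.07 and 1.75. The cargo receptor Lman1 (4.54 and 4.31) and the coat subunit Sec24d (3.36 and 3.09) stood apart from the coat subunits Sec24a (0.86 and 1.2), Sec31a (0.50 and 0.79) and Copb1 (0.54 and 0.59). Some small ratios changed sign with the scale: relative to all UMIs, Canx had -0.55 and -0.17, Sec62 -0.73 and -0.32, Sec63 -0.79 and -0.34, Sec31a -0.38 and -0.02, and Copb1 -0.35 and -0.24.

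Sensors and effectors of the unfolded protein response were split. Of 8 genes above the minimum, 4 were at least 2-fold higher in each library, with medians of 1.14 and 1.22, against 12% and 14.9% of all genes and medians of -0.11 and -0.09. The sensor Ern1 (IRE1α, which splices Xbp1 mRNA) was at 3.46 against 0.624 and at 3.93 against 0.637, log2 ratios of 2.47 (2.16 to 2.79) and 2.63 (2.36 to 2.91). The sensor Eif2ak3 (PERK) was at 3.46 against 4.92 and at 4.61 against 4.08, ratios of -0.51 (-0.67 to -0.35) and 0.18 (0.06 to 0.29). Of the effectors downstream of PERK, the pro-apoptotic factor Ddit3 had 0.02 (-0.38 to 0.41) and 0.51 (0.15 to 0.88), and Ppp1r15a, which ends the PERK response, -0.78 and -0.49. Asns (2.86 and 2.53) and Chac1 (2.77 and 4.22) were 2-fold higher, both at means under 0.5.

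Promoters of these genes were searched for the ER stress response element, a pair of short sites bound by NF-Y and by ATF6 or XBP1, with the letters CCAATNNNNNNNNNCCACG on either strand. The windows ran from 250 bases before to 50 bases after each gene start, in sequence of RefSeq on build GRCm38.p6. The exact motif was in 39 of 32851 windows (0.119%), and 37 of 27025 genes (0.137%) had it in at least 1 window. Of the ER chaperones and folding enzymes with a promoter sequence, 8 of 21 had it (Calr, Canx, Creld2, Dnajc3, Ero1b, Hsp90b1, Hspa5 and Pdia6), and of the ER-associated degradation genes 2 of 10 (Derl3 and Syvn1). No match was found for 15 genes of ER entry, 19 of ER to Golgi transport, 8 of the unfolded protein response, 7 plasma cell regulators, 11 B cell identity genes and 5 MHC class II genes. A match is a match of letters and not a measured binding site, and no match says only that these letters are not in this window. The element is named for the ER stress response, so its shares among ER genes are a description and no test. The sites are printed 5′ to 3′ along the strand of the motif for 9 of these genes. Capitals mark the pair of short sites.
Hspa5: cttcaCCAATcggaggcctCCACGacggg
Hsp90b1: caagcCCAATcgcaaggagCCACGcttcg
Calr: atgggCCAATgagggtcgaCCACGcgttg
Canx: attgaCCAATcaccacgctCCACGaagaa
Pdia6: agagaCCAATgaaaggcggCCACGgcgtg
Dnajc3: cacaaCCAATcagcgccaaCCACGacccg
Creld2: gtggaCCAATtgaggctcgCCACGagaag
Derl3: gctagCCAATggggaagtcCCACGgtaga
Syvn1: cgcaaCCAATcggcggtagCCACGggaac

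The site of Hspa5 lies at chr2:34772020-34772048, centred 56 bases before the gene start, and that of Syvn1 at chr19:6046527-6046555, 34 bases before it. The site of Hsp90b1, chr10:86705633-86705661, is 1 of 2 matches in its window. The sites of Calr (chr8:84847070-84847098), Creld2 (chr15:88819515-88819543) and Derl3 (chr10:75893237-75893265) are on the strand opposite to the gene. Those of Canx, Pdia6 and Dnajc3 are at chr11:50325795-50325823, chr12:17266486-17266514 and chr14:118937822-118937850. The genes with the motif named here ranged from Canx with 0.25 and 0.66 over Hspa5 with 1.55 and 2.02 to Hsp90b1 with 3.59 and 3.40 and Derl3 with 5.72 and 4.46 (log2 ratios of plasma over low-immunoglobulin B cells).

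Homing receptors went in both directions. Of 13 genes above the minimum, 4 were at least 2-fold higher and 6 at least 2-fold lower in plasma cells of each library, where 12% and 14.9% of all genes were higher and 11.3% and 12.3% lower. Ccr10, the receptor for the mucosal chemokine CCL28 on IgA plasma cells, was at 1.81 against 0.0399 and at 3.10 against 0.104, log2 ratios of 5.51 (3.81 to 7.99) and 4.90 (3.90 to 6.05). Ccr9, the receptor for the small intestinal chemokine CCL25, was much less abundant, at 0.311 against 0.0907 and at 0.215 against 0.0504. Cd44 (1.28 and 1.44) and Itgb7 (1.46 and 1.03) were the other higher genes, and Itga4, whose product pairs with that of Itgb7 in the gut homing integrin, had 0.92 and 0.81. The lower genes included receptors of follicles, lymph nodes and egress: Cxcr5 (-6.08 and -7.02), Ccr7 (-3.51 and -4.01), S1pr1 (-3.38 and -4.39), Cxcr4 (-2.49 and -2.30) and S1pr4 (-1.44 and -1.21).

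Of 11 listed effector and cytokine genes, Cd274, which encodes the checkpoint ligand PD-L1, was the most abundant in plasma cells, at 3.68 against 0.808 and at 5.33 against 1.36, log2 ratios of 2.19 (1.93 to 2.44) and 1.97 (1.80 to 2.14). The others lay at or under 0.666. Tgfb1, whose product favours the switch to IgA, was at 0.666 against 2.27 and at 0.553 against 2.33. Il10 was near the minimum, at 0.112 against 0.109 and at 0.147 against 0.0894, ratios of 0.04 (-0.90 to 1.0) and 0.72 (-0.08 to 1.61), so that a difference was not detectable at this depth. Of 11 effector genes, 8 were above the minimum in each library, 6 of them in both. In the F/F and the ΔMye library 4 and 3 were at least 2-fold higher and 1 lower, but only 1 was higher in both, where 12% and 14.9% of all genes were higher and 11.3% and 12.3% lower. Among germinal centre genes, Bcl6 (-1.77 and -2.58) and Fas (2.02 and 2.43) went in opposite directions. Cell cycle genes were 2-fold higher in 4 of 14 cases in the F/F library and in 3 of 12 in the ΔMye library, with medians of 0.52 and 0.57, where 12% and 14.9% of all genes were 2-fold higher. Mki67, a marker of dividing cells, was found after thinning in 8.09% and 6.02% of plasma cells and in 3.22% and 3.23% of low-immunoglobulin B cells, and in 5.07% and 4.35% of T cells. Cells with at least 10 UMIs of Mki67 and Top2a together were 17 of 279 plasma cells (6.09%, 3.59% to 9.58%) and 24 of 552 (4.35%, 2.81% to 6.40%), against 2 of 664 and 1 of 374 low-immunoglobulin B cells and 1.85% and 2.76% of T cells. With at least 3 UMIs the shares were 12.9% and 23.9% of plasma cells and 5.63% and 11.4% of T cells, so that the order of the libraries turned with the minimum. These counts are without thinning, plasma cells were deeper than low-immunoglobulin B cells, and those of the ΔMye library were deeper than those of the F/F library.

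Markers of other cell types were summed to see what else the plasma cell barcodes held. Epithelial markers summed to 22.2 per 10000 in plasma cells, 24.2 in low-immunoglobulin B cells and 23.4 in T cells of the F/F library, and to 11.4, 12.8 and 12.8 in the ΔMye library, so plasma cells did not stand apart. The same held for macrophage markers (1.69, 2.21 and 2.29 in the F/F library, and 1.68, 2.24 and 2.08 in the ΔMye library). Neutrophil markers were higher in plasma cells, with 24.1 against 7.33 and 9.06 against 4.58, but 3 cells held 65.3% of this sum in the F/F library and 6 cells 61.9% in the ΔMye library. The median plasma cell had 4.35 against 5.05 in low-immunoglobulin B cells, and 2.65 against 3.19. T cell markers summed to 1.22 and 0.820 in plasma cells, 0.418 and 0.391 in low-immunoglobulin B cells and 19.9 and 19.0 in T cells, with 4 of 6 markers at least 2-fold higher in plasma than in low-immunoglobulin B cells of each library (12% and 14.9% of all genes) and a median plasma cell at 0. Mast cell markers summed to 4.95 and 8.80 in plasma cells against 7.25 and 6.11 in low-immunoglobulin B cells, and 6 cells held 48.0% of the sum in plasma cells of the ΔMye library. Endothelial and fibroblast markers were at most 0.447, and erythroid markers at most 0.404, in plasma cells. The plasmacytoid dendritic cell list summed to 12.7 and 14.3, of which Tcf4 and Bst2, both also used by plasma cells, made up nearly all, while the defining marker Siglech was at 0.00653 and 0.0153.

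To see what rests on barcodes with mRNA of other cells, B cells were set aside as doubtful if they shared a barcode with the other library or if markers of T cells, neutrophils, mast cells, macrophages or epithelial cells reached 50% of the median of that type, a choice made after seeing the data. This applied to 72 of 279 and 85 of 552 plasma cells, mostly for epithelial markers (55 and 62 cells), and to 195 and 60 low-immunoglobulin B cells. Without them, plasma cells were 30.6% and 59.8% of the B cells, 1256 and 1486 genes were at least 2-fold higher and 1303 and 1250 lower than in low-immunoglobulin B cells, and IgA led 96.1% and 94.9%. S100a9 and S100a8 are among the neutrophil markers by which cells were set aside, so their ratios without these cells are partly fixed by that choice. S100a9 had a log2 ratio of plasma over low-immunoglobulin B cells of 1.82 in the F/F library with all cells and -0.45 without the doubtful ones, and S100a8 had 1.61 and -0.39.

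Between the libraries, plasma cells differed at few mRNAs. Of 9230 genes with a mean of at least 0.1 in the plasma cells of either library, 75 (0.813%) were at least 2-fold higher in the ΔMye library and 430 (4.66%) at least 2-fold lower, with a median log2 ratio of -0.04. For low-immunoglobulin B cells the counts were 143 and 443 of 9227, and for T cells 9 and 103 of 9237, so these cells also had more lower than higher genes. Most of the called genes were rare: with a minimum mean of 0.5, 6 and 61 were left. No listed gene of ER folding, degradation, entry or ER to Golgi transport was 2-fold changed between the libraries, with list medians of 0.20, 0.38, 0.10 and 0.22. Most of these genes had ratios above 0, with 20 of 22, 9 of 11, 14 of 20 and 20 of 23. The median over all genes was -0.04, or 0.04 with a minimum mean of 0.5. The share of all genes above 0 is not given here, so such numbers are a description only. Of 14 cell cycle genes, 1 was above 0 and 1 at least 2-fold lower in the ΔMye library, with a median of -0.57. Xbp1 had 0.08 (0.02 to 0.13), Mzb1 0.38 (0.33 to 0.43), Hspa5 0.52 (0.46 to 0.59), Txndc5 0.58 (0.51 to 0.65) and Prdm1 -0.05 (-0.24 to 0.13).

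Of the 10 highest ratios of the ΔMye over the F/F library, those of Gm15564 and Lars2 were of like size in T cells. Ratios in T cells are given for some of the 10, and those in low-immunoglobulin B cells are not given. Gm15564 had 1.25 (0.83 to 1.70) in plasma cells and 1.57 in T cells, and Lars2, a mitochondrial tRNA ligase, 1.01 (0.84 to 1.17) and 0.93. Cxcl10, an interferon-induced chemokine, was at 0.829 in plasma cells of the F/F library and 1.72 in those of the ΔMye library, a log2 ratio of 1.06 (0.78 to 1.34), with 0.28 in T cells. Stt3b, a catalytic subunit of the oligosaccharyl transferase that attaches N-glycans, was at 1.32 and 2.41, a ratio of 0.87 (0.67 to 1.07), with 0.32 in T cells. Ccr10 was at 1.81 and 3.10, a ratio of 0.77 (0.57 to 0.98), with 0.63 in T cells, where its level is near 0. The others were Chst11 (0.95), Grasp (0.88), Osbpl8 (0.79), Mast4 (0.78) and Gas7 (0.78). Only Gm15564, Cxcl10 and Lars2 of this set reached 2-fold.

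The 10 lowest ratios were all 2-fold lower in the ΔMye library. Snhg9 (-1.48 in plasma cells and -1.49 in T cells), Gm11808 (-1.39 and -1.50), Nupr1 (-1.45 and -1.27), Gm41609 (-2.25 and -1.36), Gm11290 (-1.78 and -1.08) and Mmp7 (-1.28 and -0.92) were lower in T cells too. S100a9 and S100a8, neutrophil alarmins, had -1.50 and -1.30. Without the doubtful barcodes, which were chosen in part by these mRNAs, the values were -0.10 and -0.09. The growth factor Areg was at 1.74 and 0.666, a ratio of -1.38 (-1.62 to -1.14) against -0.30 in T cells.

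IgA was the isotype of nearly all plasma cells in both libraries. The heavy chain constant gene with the most UMIs in a cell was Igha (chr12:113254830-113260236) in 268 of 279 cells of the F/F library (96.1%, 93.1% to 98.0%) and in 526 of 552 of the ΔMye library (95.3%, 93.2% to 96.9%). Cells led by an IgG gene were 11 (3.94%, 1.98% to 6.94%) and 25 (4.53%, 2.95% to 6.61%), which differ by 0.586 points (-2.72 to 3.28), within counting error. They were led by Ighg1 in 6 and 8 cells, Ighg2c in 4 and 14 and Ighg2b in 1 and 3, where Ighg2b and Ighg2c are related genes between which reads could be split in counting. Ighm led 0 cells in the F/F library, which allows a share of up to 1.08%, and 1 cell in the ΔMye library. Ighg3, Ighe and Ighd led 0 cells, which allows up to 1.08% and 0.543%. The leading gene was nearly alone: it held a median of 99.97% and 99.88% of a cell's heavy chain UMIs, and at least 75% in 278 of 279 and 552 of 552 cells. The antibody genes are part of the rule, so these shares describe the selected cells.

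The ratio of heavy to light chain mRNA had about the same median in both libraries but varied several-fold between cells. Mean levels per 10000 of all UMIs were 2548 and 2468 for Igkc, 1299 and 1304 for Igha, and 400 and 474 for Jchain. In cells led by Igha and Igkc, the median ratio of Igha to Igkc UMIs was 0.528 in the F/F library (5th to 95th percentile 0.252 to 1.0, 263 cells) and 0.525 in the ΔMye library (0.268 to 0.924, 500 cells). In summed UMIs the ratio was 0.496 and 0.516 in plasma cells, 0.597 and 0.635 in low-immunoglobulin B cells, and 0.994 and 0.897 in T cells. The antibody UMIs of T cells thus held the chains in another ratio than those of plasma cells.

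Kappa light chains led in 274 of 279 and 526 of 552 plasma cells. Cells led by a lambda gene were 5 (1.79%, 0.584% to 4.13%) in the F/F library and 26 (4.71%, 3.10% to 6.83%) in the ΔMye library, a difference of 2.92 points (0.157 to 5.26). All 26 of the ΔMye library were led by Iglc2 and by Igha. Of these, 15 were led by the heavy chain variable gene Ighv9-3 (57.7%, 36.9% to 76.6%), which led 28 plasma cells of this library in all, 5 by Ighv6-6 and 3 by Ighv5-6. Iglv2 was their leading lambda variable gene in 18 cells, of 19 cells so led among all plasma cells of the library, and Iglv1 in 6. The 5 lambda-led cells of the F/F library had no heavy chain variable gene in common (1 had none with enough UMIs), were led by Iglc3 in 3 cells and by Iglc1 and Iglc2 in 1 each, and 4 had Iglv1. Iglc2 and Iglc3 are near-identical and their split is uncertain. No lambda-led cell had a kappa variable gene with at least 3 UMIs (0 of 5 and 0 of 26, which allows up to 60% and 11.5%).

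The reverse did not hold: kappa-led plasma cells carried mRNA of lambda variable genes, counted here from 1 UMI. At the minimum of 3 UMIs, a lambda variable gene was called in 219 of 279 and 488 of 552 plasma cells of all kinds. Iglv1 (chr16:19085017-19085500) had at least 1 UMI in 86.5% of the 274 kappa-led cells of the F/F library and in 93.5% of the 526 of the ΔMye library, with a median of 16.5 and 30 UMIs per cell and a mean of 20.4 and 22.3 per 10000 of all UMIs. In low-immunoglobulin B cells 2.26% and 6.68% of cells had a UMI of it, and in T cells 1.65% and 6.64%, at means of at most 0.137. Iglv3 showed the same at a lower level, in 71.9% and 80.0% of kappa-led cells, at a mean of 2.07 and 1.53. Iglv2, which led most lambda-led cells of the ΔMye library but 1 of 5 of the F/F library, did not, with a UMI in 4.74% and 11.6% of kappa-led cells and a mean of 0.0760 and 0.0916. The level in T cells was far below the Iglv1 level in plasma cells. The files do not tell a rearranged from an unrearranged transcript.

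At a chosen set of genes, IgG-led and IgA-led plasma cells of the same library differed in Jchain, Txndc5 and some receptors. The small number of IgG-led cells limits this. Other genes were not compared, so there is no share over all genes, and not every gene of the set is named. Jchain was at 125 per 10000 of all UMIs in the 11 IgG-led cells of the F/F library (15.2 to 244, median 116) against 412 in the IgA-led cells (median 425), and at 204 in the 25 IgG-led cells of the ΔMye library (54.4 to 425, median 201) against 486 (median 507). The log2 ratios were -1.72 (-1.80 to -1.64) and -1.25 (-1.28 to -1.23), and the highest IgG-led cell was under the IgA-led median in both libraries. These narrow intervals count UMIs and leave out the spread among the 11 and 25 IgG-led cells, as do those of the ratios below. Both Jchain and the heavy chain genes are part of the rule. The 11 antibody mRNAs together had a median of 3046 per 10000 in IgG-led against 4693 in IgA-led cells of the F/F library. In the ΔMye library these medians were 4601 and 4731. Ccr10 had a UMI in 3 of 11 IgG-led against 162 of 268 IgA-led cells, and in 12 of 25 against 457 of 526, log2 ratios of -2.28 (-4.86 to -0.52) and -2.20 (-2.71 to -1.73). Txndc5 was at 4.58 against 12.5 and at 6.92 against 18.8, ratios of -1.45 (-1.99 to -0.95) and -1.44 (-1.6 to -1.28). Cd28 had -1.11 (-2.24 to -0.18) and -1.10 (-1.47 to -0.75). Ly6c2 went the other way, at 8.41 against 4.48 and at 17.8 against 5.48, ratios of 0.91 (0.30 to 1.48) and 1.70 (1.53 to 1.86), and so did Cxcr4, which guides plasma cells to bone marrow, with 1.08 (-0.11 to 2.09) and 1.12 (0.50 to 1.70). Mzb1 (0.22 and 0.03) and Cd74 (0.07 and 0.04) were alike in both classes.

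Xbp1 and Fkbp11 differed between the classes in opposite directions in the libraries. Xbp1 had a log2 ratio of IgG-led over IgA-led cells of -0.98 (-1.46 to -0.52) in the F/F library and 0.16 (0.06 to 0.26) in the ΔMye library, and Fkbp11 -0.86 (-1.74 to -0.09) and 0.72 (0.52 to 0.92). Whether these differences differ between the libraries was not tested. Bst2 had -1.23 (-1.95 to -0.60) and 0.06 (-0.19 to 0.31), Itgb7 0.80 (-0.15 to 1.63) and -1.19 (-1.90 to -0.55), and Tnfrsf17 -0.60 (-1.57 to 0.22) and -2.59 (-3.36 to -1.90). The IgG-led cells had a median of 9721 UMIs in the F/F library against 15687 in IgA-led cells, and 34446 against 33192 in the ΔMye library. Of the 11 IgG-led cells of the F/F library, 3 shared the variable genes Ighv1-85 and Igkv19-93, at a median of 1712 UMIs. Another 2 shared Ighv1-12 and Igkv5-48. How far such cells shape the ratios of the F/F library was not tested.

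**Figure D4:**
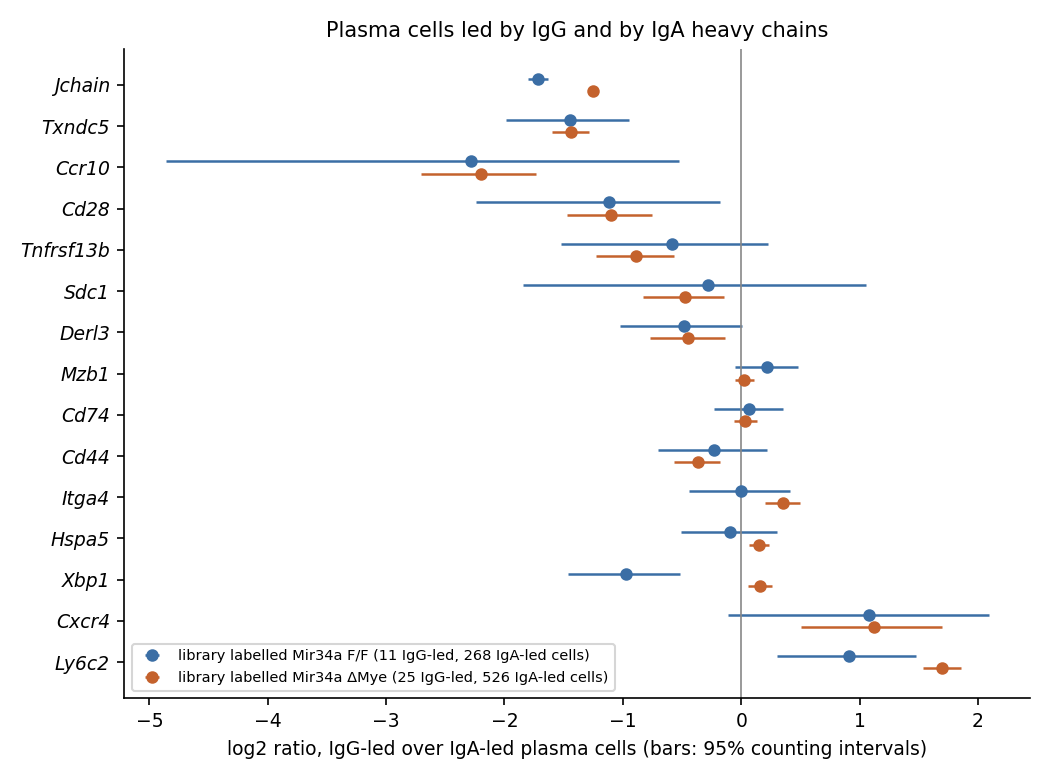
Log2 ratio of IgG-led over IgA-led plasma cells (x axis) for 15 mRNAs (y axis) in each library, with 95% counting intervals as bars. Jchain, Txndc5, Ccr10 and Cd28 lie left of 0 with their bars in both libraries, Ly6c2 lies right of 0, and Xbp1 lies on opposite sides.

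Variable genes, which the rule did not use, described the repertoire. A heavy chain variable gene with at least 3 UMIs was found in 261 of 279 plasma cells of the F/F library and in 538 of 552 of the ΔMye library, and a kappa variable gene in 260 and 509. The leading gene held a median of 100% and 99.9% of a cell's heavy chain variable UMIs, and 97.9% and 97.1% of its kappa variable UMIs. Leading heavy chain genes numbered 61 and 74, of which 56 led cells in both libraries, and leading kappa genes 59 and 72, with 57 in both. The Ighv1 family led 165 of 261 cells (63.2%, 57.1% to 69.1%) and 329 of 538 (61.2%, 56.9% to 65.3%). The repertoires were thus broad and shared most of their genes. Variable genes are similar in sequence, so reads of close relatives may have been assigned to each other.

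The most frequent heavy chain genes were not the same in the libraries. Ighv1-53 (chr12:115158403-115158835) led 23 cells of the F/F library (8.81%) and 22 of the ΔMye library (4.09%), Ighv1-7 (chr12:114538495-114538965) led 18 (6.90%) and 16 (2.97%), and Ighv4-1 (chr12:113948282-113948796) led 16 (6.13%) and 6 (1.12%). In the ΔMye library, Ighv8-8 (chr12:115294062-115294504) led 33 cells (6.13%, 4.26% to 8.51%), Ighv1-26 32 (5.95%) and Ighv3-6 29 (5.39%), while in the F/F library Ighv8-8 led 1 cell (0.383%). The largest differences of the ΔMye minus the F/F library were -5.02 points (-8.66 to -2.36) for Ighv4-1, -4.72 (-9.01 to -1.21) for Ighv1-53 and -3.92 (-7.83 to -0.849) for Ighv1-7, and 5.75 (3.28 to 8.13) for Ighv8-8, 3.67 (0.848 to 6.08) for Ighv1-81 and 3.29 (0.340 to 5.76) for Ighv9-3. They cover counting error only, and a single expanded clone of a mouse would count as many cells. Among kappa genes, Igkv1-110 (chr6:68270485-68271267) led 12.3% and 11.8% of cells with a call, Igkv1-117 5.77% and 6.48%, and Igkv10-96 5.00% and 4.72%. Differences of other kappa genes had intervals without 0, with -3.82 points (-7.25 to -1.35) for Igkv4-86, which led 13 and 6 cells, -3.06 (-6.19 to -0.934) for Igkv5-48, 2.36 (0.589 to 4.08) for Igkv1-88 and 1.96 (0.256 to 3.58) for Igkv6-14. They were picked from all kappa genes compared, and the intervals are not adjusted for that number. Igkv1-88 and Igkv6-14 led 12 and 10 cells of the ΔMye library, and all 12 Igkv1-88 cells were led by Ighv1-7.

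**Figure D5:**
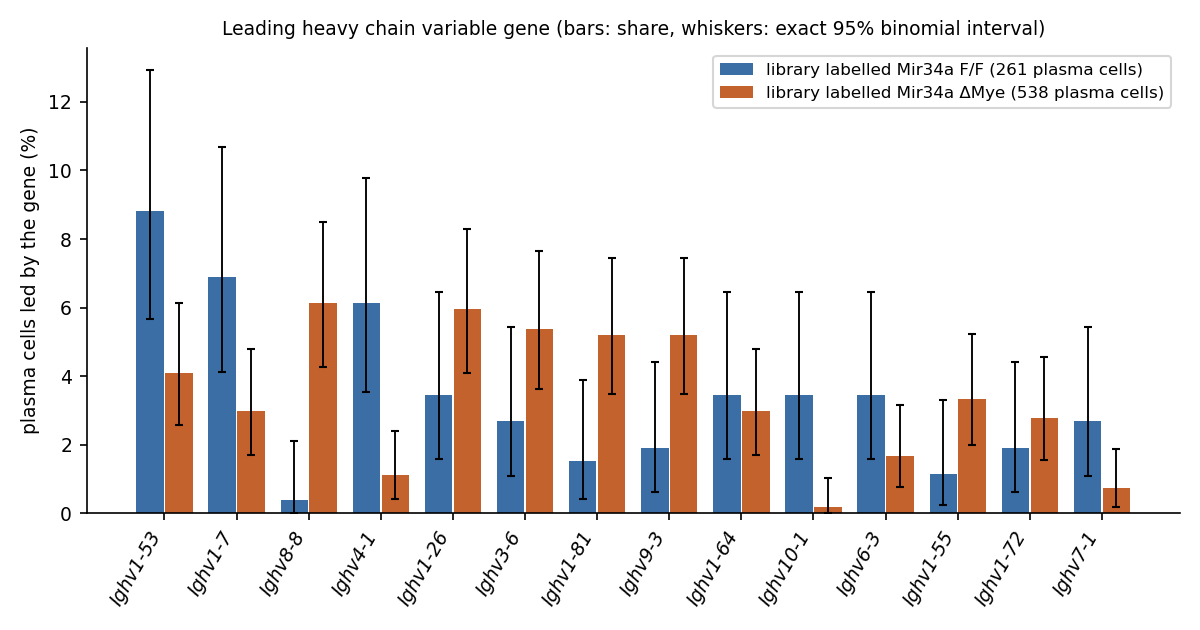
Share of plasma cells led by a heavy chain variable gene (y axis, in percent of the 261 and 538 cells with a call, with exact 95% binomial intervals) for the genes that led most cells (x axis). Ighv1-53, Ighv1-7 and Ighv4-1 have taller bars in the F/F library, and Ighv8-8 is at 6.13% in the ΔMye library against 0.383%.

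Some heavy chain genes had 1 main kappa partner beside others. In the ΔMye library, 25 of the 33 cells led by Ighv8-8 were led by Igkv1-110 (75.8%, 57.7% to 88.9%), against 34 of 472 cells with other heavy chain genes (7.2%), and 12 of 16 Ighv1-7 cells by Igkv1-88, against 0 of 489 others, which allows up to 0.613%. In the F/F library, 12 of 15 Ighv4-1 cells were led by Igkv4-86 (80%, 51.9% to 95.7%), against 1 of 238 others, and 10 of 18 Ighv1-7 cells by Igkv1-110 (55.6%), against 21 of 235 (8.94%). The same Ighv1-7 thus had a different main partner in each library. So did Ighv4-1, with Igkv4-91 in 4 of its 6 cells of the ΔMye library. Ighv1-26 and Ighv1-53 had no main partner, with at most 22.7% of their cells on 1 kappa gene. Over all cells with both calls, 253 and 505, there were 174 and 298 pairs, of which 140 and 204 occurred in a single cell. Repeated pairs held 113 (44.7%) and 301 (59.6%) of the cells, and 5 and 12 pairs held at least 5 cells. The ΔMye library had more cells and deeper ones, so these shares are not comparable as they stand. Of the pairs, 30 occurred in both libraries, 17.2% and 10.1% of each library's pairs. Cells with the same pair need not be a clone, since the joining sequences were not analysed here.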

How the data were processed

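Tumors were dissociated, and 10x Genomics 3′ libraries were aligned by the authors to mm10 with Cell Ranger 7.2.0 and filtered for cell quality and doublets. The authors deposited natural log values of UMIs scaled to 10000 per cell, with cell types. Whole UMIs were recovered from these values for 32291 genes and 38883 cells (largest deviation 1.5e-10) with Python 3.11.15, numpy 2.4.6, scipy 1.17.1 and pandas 2.3.3. The paper states a limit of less than 25% mitochondrial RNA. By the recovered UMIs, 11 B cells of the F/F library and 22 of the ΔMye library were at or above 25%. Of these, 10 and 20 were low-immunoglobulin B cells. Non-immunoglobulin levels leave out 393 immunoglobulin genes, and ratios were taken at means of at least 0.1, with a 2-fold limit and a floor of 3 UMIs for genes at 0. Intervals are exact binomial or Poisson and Newcombe intervals. For ratios the exact interval of summed UMIs was rescaled to the weighted mean, a change made after a test on simulated data. With 1 library per genotype no test was made. Members and gene lists were chosen with earlier results of these data known. Named genes were the 10 highest and the 10 lowest ratios of each comparison (for plasma against low-immunoglobulin B cells ranked by the library nearer 0) at a mean of at least 1 in at least 25% of cells of the higher group, the 3 leading variable genes of each library and locus, and genes of the lists, of which a few are not reported here. Positions are from mm10. For shares of cells with a UMI, cells were thinned to 1000 UMIs. Thresholds of 500 and 2000, other scales and filters were tried.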

Additional observations from a re-analysis of the deposited data

Results flagged for a closer look

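Barcodes that the annotation gave to other cell types also reached the antibody threshold of 1000 UMIs per 10000. The F/F library had 10 such barcodes among 19369 (0.0516%, exact binomial interval 0.0248% to 0.0949%), and the ΔMye library 26 among 17645 (0.147%, 0.0963% to 0.216%). By label they were epithelial in 7 and 14 cases, macrophages in 1 and 5, mast cells in 0 and 5, T cells in 1 and 1, endothelial in 1 and 0 and neutrophils in 0 and 1. Xbp1 had a UMI in 7 of the 10 and in 21 of the 26, at means of 5.41 and 8.41 per 10000 non-immunoglobulin UMIs, and Mzb1 in 8 and 15. Whether these barcodes hold mRNA of more than 1 cell was not tested.

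For 3 of the genes named or listed here, the log2 ratio of plasma over low-immunoglobulin B cells was under 2-fold and had opposite signs in the 2 libraries with intervals on either side of 0, and the difference between the libraries was not tested. Eif2ak3, the ER stress sensor PERK, had -0.51 and 0.18, and -0.49 and 0.15 without the doubtful barcodes. The mast cell proteases Mcpt1 (-0.63 and 0.63) and Mcpt2 (-0.37 and 0.44) are among the markers by which barcodes were called doubtful. Without those barcodes, the values were -0.77 and -0.14 for Mcpt1 and -0.65 and -0.51 for Mcpt2.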

How the results depend on the processing

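Of 116 values of the main results under other settings, 98 stayed within the limits set (counts within 1.5 times) and 18 moved. Some of the 98 could hardly move, so their number does not measure how stable the results are. Subtracting the T cell mean could not change the shares. Asking for a leading heavy chain gene with at least 75% kept 278 of 279 and 552 of 552 plasma cells. The limit on mitochondrial UMIs took out 1 plasma cell of the F/F library and 2 of the ΔMye library. Among the main results, a reversal could be called only for the difference in plasma cell share between the libraries, and it did not occur there. Numbers of 2-fold changed genes moved with the scale and with the treatment of rare mRNAs. Relative to all UMIs, 316 genes (F/F library) and 395 (ΔMye library) were higher and 4511 and 4281 lower in plasma than in low-immunoglobulin B cells, and 34 were higher in plasma cells of the ΔMye than of the F/F library. With a pseudocount of 0.1 the counts were 650 and 821 higher and 523 and 639 lower, and 9 higher and 60 lower between libraries. With a minimum mean of 0.5, fewer genes entered, and the counts were 539 and 713, 520 and 620, and 6 and 61. Without barcodes shared between libraries or with markers of other cell types, a setting chosen after seeing the data, 54.6% of the ΔMye plasma cells with both variable genes called lay in repeated pairs, the share of higher among 2-fold changed genes between libraries went from 14.9% to 21.9%, and 3 ratios of at least 2-fold changed sign: S100a9 (-0.45) and S100a8 (-0.39), both among the markers used for that choice, of plasma over low-immunoglobulin B cells in the F/F library, and Il6 between libraries (-0.025, from 1.64). Of 4455 values of single genes and shares, 3746 stayed, 706 moved and these 3 reversed, where a change of sign was counted as a reversal only for ratios of at least 2-fold. Those that stayed include 516 ratios under the minimum mean of 0.5, which selects genes and cannot change their ratios. Smaller ratios, such as those of Canx and Mcpt1, also changed sign. No paired analysis was possible because each genotype had 1 library, and for the same reason no replicate could be left out. Depth limits mRNAs near 0.1, such as Il10 and the germinal centre genes.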
